A study of Mus musculus with 7 samples.

Results

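The enzymes that write and remove DNA methylation were examined through H3K27ac, the histone mark of promoters and enhancers in use, in mouse embryonic stem (ES) cells induced to express the neurogenic transcription factor NeuroD1. The genes were Dnmt1, Dnmt3a, Dnmt3b, Dnmt3l, Uhrf1, Tet1, Tet2 and Tet3, 8 of the 16152 protein-coding genes that had at least 1 merged H3K27ac peak in the gene body or the 10 kb on either side of it (mm10, GENCODE release M21). That rule took 86 of the 66841 merged peaks, of which 18 were promoter peaks of these genes, 7 were promoter peaks of a neighbouring gene alone and 61 were neither, where a promoter peak overlaps the 2 kb on either side of an annotated transcript start. The rule did not use H3K27ac values.

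All cells were of the A2Lox cell line, with a transgene of the murine NeuroD1 coding sequence, tagged with HA at its N-terminus, under a promoter that responds to doxycycline. By their titles and treatment labels the 0 h cells received no doxycycline, and the 12 h and 48 h cells had 500 ng per ml of it for that time. The treatment protocol in the labels instead names 48 h of doxycycline for every sample, 0 h included, so the labels disagree and the time points here are those of the titles. Each time point had the libraries R1 and R2, which made 6 libraries, and the labels do not say that these came from separate cultures, so p-values measure the spread between these libraries, which may be technical. No cells kept without doxycycline for 12 h or 48 h were analysed here, so the effect of NeuroD1 and that of doxycycline or of time in culture cannot be told apart. The cells had been grown on inactivated fibroblasts and then freed of them over several passages.

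Reads in merged peaks ranged from 6283103 to 8112895 per library, and the median peak held 30.5 reads. Counts below are scaled to the mean library total of 6976014. The libraries of 48 h differed from each other more than those of the other time points, with a chi-square per degree of freedom of 5.54 across peaks against 1.79 at 0 h and 1.42 at 12 h. All 6 of 6 ES cell markers (Pou5f1, Sox2, Nanog, Esrrb, Zfp42 and Tdgf1) had a promoter peak, with mean scaled counts from 1621.6 to 3753.2, whereas 2 of 8 fibroblast markers had one, with mean scaled counts of 10.4 (Col1a1) and 16.4 (Lum). A promoter peak was found for 6 of 7 neuronal markers and for Dcx none. Fewer cells in which a site is acetylated and less acetylation per cell cannot be told apart in such bulk samples.

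DNA methylation in mammals is written on cytosines followed by guanine. Dnmt1 copies it to the new strand after replication, brought there by Uhrf1, while Dnmt3a and Dnmt3b set it de novo with the help of the catalytically inactive Dnmt3l. The Tet enzymes oxidise methylcytosine and so start its removal, and mouse ES cells are known for high Tet1 and Tet2 levels, with Tet3 better known from the oocyte and from neurons.

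The sequences of the sites on which the results turn are shown first, from the RefSeq assembly GRCm38.p6 (mm10) and 5′ to 3′ on the strand of the gene. Capitals mark E-boxes (CANNTG, read on both strands since the motif is palindromic in its fixed letters), the hexamers bound by basic helix-loop-helix factors such as NeuroD1. Among the central 300 bp of 66783 merged peaks, 75.3% held at least 1 CANNTG, 18.5% CAGATG or its reverse complement and 16.1% CAGCTG. Of the 250 bp before the start of 32851 RefSeq promoters, 66.2% held a CANNTG, 14.4% CAGATG and 13.0% CAGCTG. A match is a description of the letters and not a site of binding.
The Tet3 intronic peak with the largest gain among the peaks of these genes, chr6:83428137-83428436, minus strand, holds 3 E-boxes, of which 2 are CAGCTG.
Tet3 intronic peak: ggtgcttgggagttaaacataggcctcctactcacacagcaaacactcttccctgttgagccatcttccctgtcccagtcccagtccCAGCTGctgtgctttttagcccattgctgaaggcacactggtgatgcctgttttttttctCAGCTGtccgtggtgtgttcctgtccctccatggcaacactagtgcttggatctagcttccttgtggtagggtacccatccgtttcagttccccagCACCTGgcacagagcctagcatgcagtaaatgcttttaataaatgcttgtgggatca
The bases before the internal Tet3 start, chr6:83441679-83441928, and those in the centre of the peak at the upstream Tet3 start, chr6:83456477-83456776, both on the minus strand, are shown since both peaks gained H3K27ac at 48 h. The latter window holds 46 CpG dinucleotides.
Tet3 internal start: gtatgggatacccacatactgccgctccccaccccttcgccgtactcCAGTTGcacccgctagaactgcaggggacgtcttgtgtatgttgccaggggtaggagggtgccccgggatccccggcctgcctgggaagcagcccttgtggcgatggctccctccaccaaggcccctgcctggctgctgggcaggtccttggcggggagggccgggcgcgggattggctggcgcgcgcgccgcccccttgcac
Tet3 upstream start: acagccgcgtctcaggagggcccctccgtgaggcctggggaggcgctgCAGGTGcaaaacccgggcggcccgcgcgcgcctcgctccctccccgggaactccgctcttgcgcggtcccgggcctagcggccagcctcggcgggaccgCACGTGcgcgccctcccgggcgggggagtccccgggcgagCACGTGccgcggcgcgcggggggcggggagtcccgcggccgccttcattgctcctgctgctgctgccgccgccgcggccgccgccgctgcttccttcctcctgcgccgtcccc
The bases before the upstream Dnmt3a start, chr12:3806730-3806979, and before the internal Dnmt3a start, chr12:3891494-3891727, both on the plus strand, are shown since the peak at the internal start gained H3K27ac while that at the upstream start passed no test. The window at the internal start holds 1 E-box and that at the upstream start none.
Dnmt3a upstream start: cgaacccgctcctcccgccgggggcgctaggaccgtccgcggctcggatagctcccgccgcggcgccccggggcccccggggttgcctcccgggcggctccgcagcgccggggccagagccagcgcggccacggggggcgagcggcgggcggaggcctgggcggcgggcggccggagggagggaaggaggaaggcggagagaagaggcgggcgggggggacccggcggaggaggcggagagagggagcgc
Dnmt3a internal start: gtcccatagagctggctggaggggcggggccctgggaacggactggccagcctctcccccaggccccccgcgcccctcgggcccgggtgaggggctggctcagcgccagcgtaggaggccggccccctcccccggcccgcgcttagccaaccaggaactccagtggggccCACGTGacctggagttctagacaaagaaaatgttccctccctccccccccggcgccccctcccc
The centres of the Dnmt3b peaks that gained H3K27ac are chr2:153642198-153642497, upstream of the gene, and chr2:153652005-153652304, in an intron, both on the plus strand.
Dnmt3b upstream peak: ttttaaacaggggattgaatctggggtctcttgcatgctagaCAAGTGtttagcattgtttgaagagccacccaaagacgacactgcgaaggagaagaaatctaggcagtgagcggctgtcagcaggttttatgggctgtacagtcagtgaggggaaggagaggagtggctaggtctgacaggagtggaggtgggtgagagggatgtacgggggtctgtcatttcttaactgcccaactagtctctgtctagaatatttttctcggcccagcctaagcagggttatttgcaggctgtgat
Dnmt3b intronic peak: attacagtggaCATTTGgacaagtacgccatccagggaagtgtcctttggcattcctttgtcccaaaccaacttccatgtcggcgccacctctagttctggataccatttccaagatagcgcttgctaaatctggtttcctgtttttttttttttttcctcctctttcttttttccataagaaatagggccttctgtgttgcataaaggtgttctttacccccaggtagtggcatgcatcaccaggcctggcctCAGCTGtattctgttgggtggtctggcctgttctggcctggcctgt
The bases before the Tet2 start, chr3:133544391-133544640, minus strand, are shown as the start within the domain that lost H3K27ac, and hold 51 CpG dinucleotides and no E-box.
Tet2 start: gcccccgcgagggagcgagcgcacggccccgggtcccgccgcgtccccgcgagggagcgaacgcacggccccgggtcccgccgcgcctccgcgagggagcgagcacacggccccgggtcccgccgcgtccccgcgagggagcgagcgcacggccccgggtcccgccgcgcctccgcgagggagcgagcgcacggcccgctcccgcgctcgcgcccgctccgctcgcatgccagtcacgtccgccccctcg

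H3K27ac over these genes changed in different directions with time of induction. Dnmt3a and Dnmt3b gained H3K27ac by 12 h and held it at 48 h, Dnmt1 and Uhrf1 lost it at 12 h on the scale of library totals, Tet3 gained it at 48 h, Tet1 and Tet2 lost it from 12 h to 48 h, and Dnmt3l passed the test in no comparison. For each gene the counts of all its peaks were summed and compared between time points by the quasi-likelihood test of edgeR. Its p-values were adjusted after Benjamini and Hochberg over all 16152 genes, and those of single peaks over all 66841 peaks, with a threshold of 0.05. Gained and lost mean an adjusted p under that threshold with a positive or negative log2 fold change. The 3 comparisons share libraries, so that a low 12 h value, for example, enters both 12 h vs 0 h and 48 h vs 12 h.

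At 12 h vs 0 h, 2 of the 8 genes gained H3K27ac (25.0%, against 7.14% of all genes) and 2 lost it (25.0%, against 30.2%). At 48 h vs 0 h, 3 of 8 gained (37.5%, against 6.46%) and 0 lost, with an all-gene share of 5.36% lost. At 48 h vs 12 h, 2 of 8 gained (25.0%, against 38.2%) and 2 lost (25.0%, against 7.73%). The median log2 fold change over all genes itself moved, by -0.29, 0.03 and 0.32 in the 3 comparisons, against medians of -0.02, -0.10 and 0.14 over the 8 genes. With TMM factors in place of library totals the all-gene medians were -0.02, 0.01 and 0.03, and the share of calls that were gains changed from 19.1% to 73.3% at 12 h vs 0 h and from 83.2% to 42.0% at 48 h vs 12 h (84.4% and 30.4% with DESeq2's size factors), so changes are also given below relative to the all-gene median.

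Among single peaks, 2 of 86 gained (2.33%, against 9.93% of all peaks) and 6 lost (6.98%, against 6.03%) at 12 h vs 0 h. In the comparison of 48 h with 0 h, 6 gained (6.98%, against 8.56%) and 2 lost (2.33%, against 5.45%), and at 48 h vs 12 h 4 gained (4.65%, against 10.7%) and 3 lost (3.49%, against 8.43%). The share of peaks that gained lay below that of all peaks in each comparison. Over the 86 peaks the median log2 fold changes were -0.10, -0.12 and 0.00, beside -0.08, -0.04 and -0.03 over all peaks. In all, 16 of the 86 peaks passed the test in at least 1 comparison, 7 of them promoter peaks of these genes, 3 promoter peaks of a neighbouring gene alone and 6 others. A count of 10 or more in at least 2 libraries was reached by 82 of the 86 peaks. Of all 86, 39 averaged under 20 scaled reads, where small changes were not detectable at this depth.

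**Figure D1:**
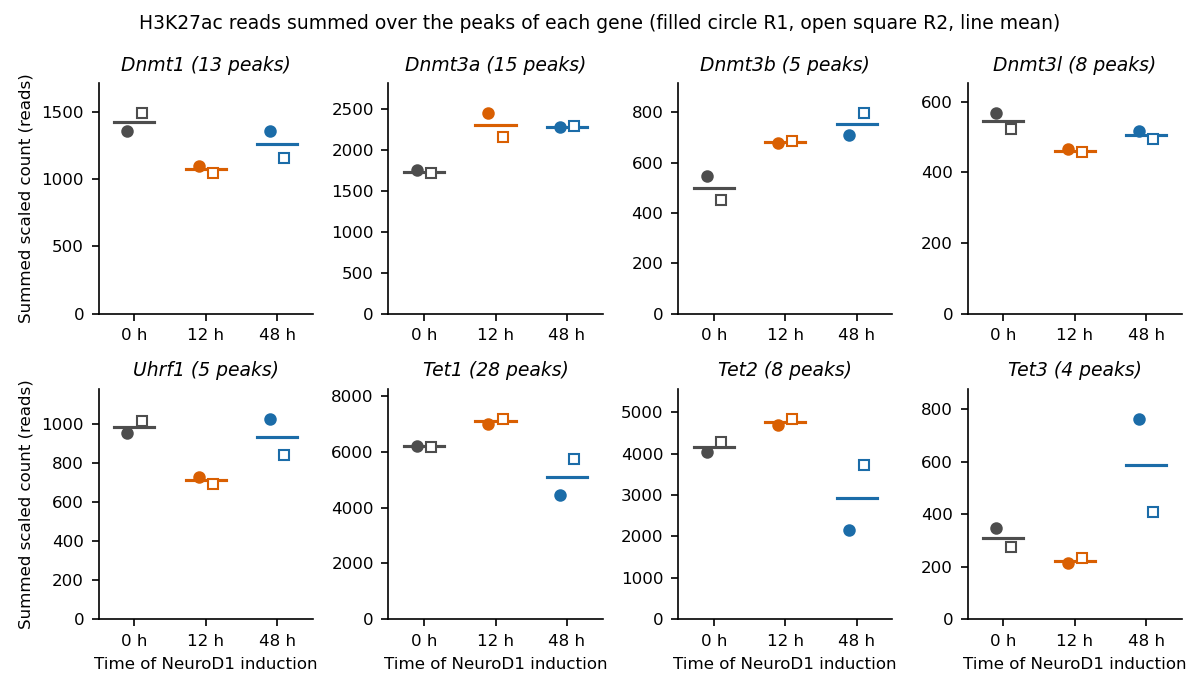
Summed scaled H3K27ac counts (reads, y axis from 0) over the peaks of each gene at 0 h, 12 h and 48 h of induction, with filled circles for R1, open squares for R2 and a line at the mean of both. Tet3 rises above its 0 h and 12 h libraries at 48 h, Dnmt3a and Dnmt3b lie above their 0 h libraries at 12 h and 48 h, and the 48 h libraries of Tet2 range from 2150 to 3734.

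**Figure D2:**
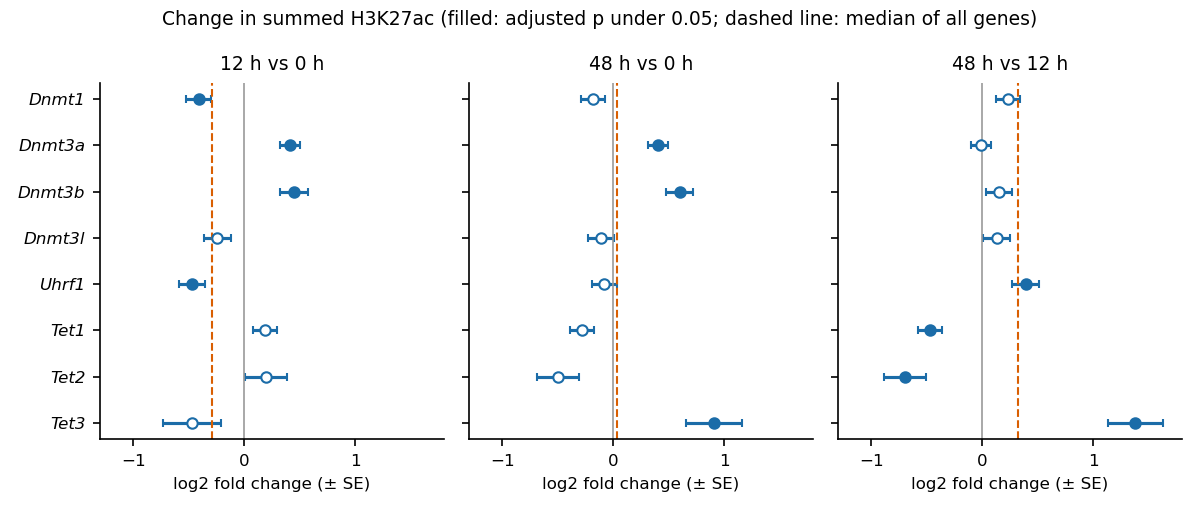
The log2 fold change (x axis, with its SE) of the summed counts of each gene in 12 h vs 0 h, 48 h vs 0 h and 48 h vs 12 h, with filled points where the adjusted p was under 0.05 and a dashed line at the median of all genes (-0.29, 0.03 and 0.32). Tet3 lies farthest to the right at 48 h vs 12 h, at 1.38, and Tet2 farthest to the left, at -0.70.

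Per length, the peaks taken by the 10 kb rule differed between genes in their acetylation before induction. They include promoter peaks of a neighbouring gene alone, 3 of 5 for Uhrf1, 2 of 8 for Dnmt3l, 1 of 28 for Tet1 and 1 of 13 for Dnmt1. Over all libraries the Ccar1 promoter peak near Tet1 averaged 214 per kb and the widest Tet1 peak 196. Those of Kdm4b near Uhrf1 averaged 65.4 and 123, and the promoter peak of Uhrf1 itself 136. The order of the genes without such peaks was not computed. At 0 h the scaled counts per kb of peak were highest for Tet1, at 143 ± 0.798 (SD, n = 2), then Uhrf1 at 126 ± 5.41, Tet2 at 113 ± 4.45 and Dnmt1 at 102 ± 6.73. Lower levels were found for Dnmt3a at 76.5 ± 1.37, Dnmt3l at 70.4 ± 4.02, Tet3 at 70.3 ± 11.2 and Dnmt3b at 54.7 ± 7.35, and only the libraries of Dnmt3l and Tet3 overlapped among neighbours in this order. At 12 h the order ran from Tet1 (163) and Tet2 (130) over Dnmt3a (102), Uhrf1 (91.5), Dnmt1 and Dnmt3b (74.7) to Dnmt3l (59.5) and Tet3 (50.5), with no overlap between neighbours. At 48 h Tet3 led with 133 ± 57.1, but its libraries, at 173 and 92.1, overlapped those of Uhrf1 (120 ± 16.8), which overlapped those of Tet1 (118 ± 20.9). Dnmt3a followed at 101 ± 0.250, and the libraries of Dnmt1, Dnmt3b, Tet2 and Dnmt3l each overlapped the next in this order at 48 h. These are levels of acetylation per kb on the scale of library totals, not of transcript.

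The peaks also differed in shape. The widest was a domain of 23414 bp over the start of Tet1, chr10:62880334-62903747, with only 9 wider peaks and 12 with a higher mean count in the whole table, and it held 74.8% of the reads of that gene. Tet2 had 2 domains side by side, of 16072 bp over its start and of 15742 bp inside the gene, with 59 and 62 wider peaks in the table. The internal Dnmt3a start lay in a peak of 10273 bp, with 250 wider. The peaks of Tet3, by contrast, were at most 1916 bp wide, and over all 86 peaks the median width was 604 bp, beside 676 bp for all merged peaks.

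**Figure D3:**
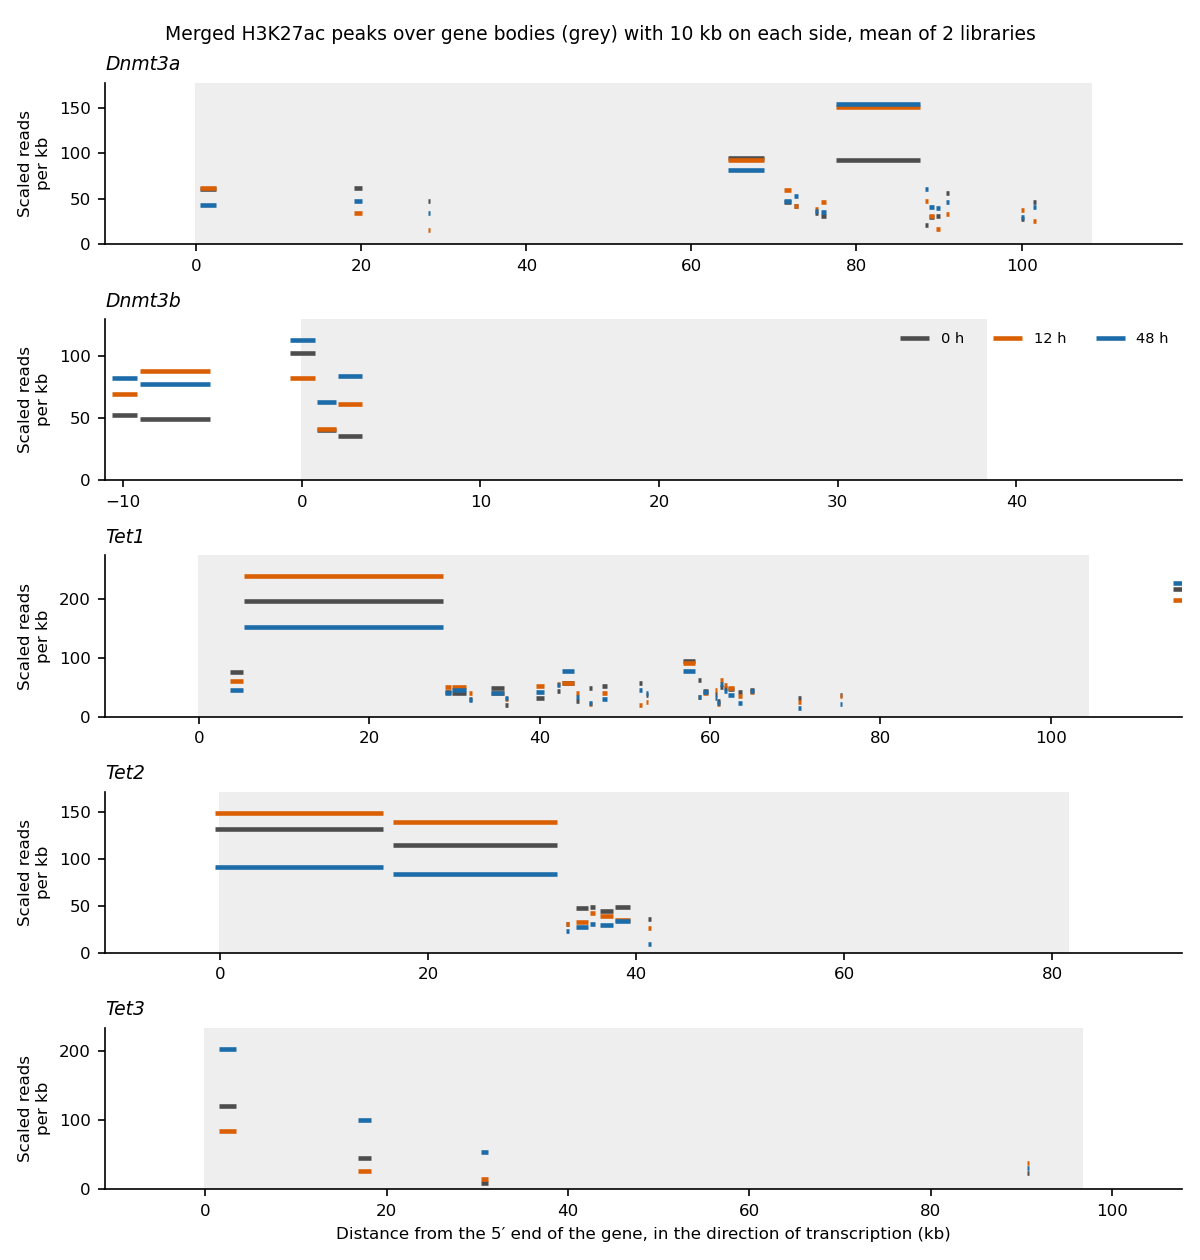
Merged H3K27ac peaks of Dnmt3a, Dnmt3b, Tet1, Tet2 and Tet3 as horizontal bars, each at its place in kb from the 5′ end of the gene in the direction of transcription (x axis) and at its mean scaled reads per kb of peak (y axis) at 0 h (grey), 12 h (orange) and 48 h (blue), n = 2, with the gene body shaded. Dnmt3a differs from 0 h mainly in its internal wide peak, Tet1 and Tet2 in wide domains near the start, and Tet3 in the peaks of its starts and of an intron. The bar at the right edge of Tet1 is the promoter peak of Ccar1.

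Among the maintenance factors, Dnmt1 (ENSMUSG00000004099.16, chr9:20907209-20959888, minus strand), the methyltransferase that copies methylation patterns, had 13 peaks. Its summed scaled counts were 1362 and 1495 at 0 h, 1100 and 1051 at 12 h, with 1363 and 1163 at 48 h. The 12 h libraries were the lowest, without overlap with 0 h, and those of 48 h overlapped 0 h. The log2 fold change at 12 h vs 0 h was -0.41 ± 0.11 (SE, adjusted p = 0.017), or -0.12 relative to the all-gene median. The call was not made with TMM factors (-0.14, adjusted p = 0.35), with DESeq2 (-0.13, adjusted p = 0.61), without promoter peaks (-0.17, adjusted p = 0.47) or without any single 0 h or 12 h library (adjusted p from 0.071 to 0.16). The other comparisons gave -0.18 ± 0.11 (adjusted p = 0.34) for 48 h vs 0 h and 0.23 ± 0.11 (adjusted p = 0.095) for 48 h vs 12 h. Its promoter peak, chr9:20951211-20954205 over exons at an annotated start, had 578.8 and 619.8 scaled reads at 0 h, 456.8 and 411.2 at 12 h, with 621.8 and 472.9 at 48 h, and passed the test in no comparison (-0.47 ± 0.17 with an adjusted p of 0.064 at 12 h vs 0 h). With only the 4 compared libraries fitted it passed at 12 h vs 0 h (adjusted p = 0.00013), and with TMM factors it did not (-0.40, adjusted p = 0.13).

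The single peak called near Dnmt1 was the promoter peak of Eif3g, a translation initiation subunit, 8245 bp beyond the 3′ end of Dnmt1 at chr9:20897389-20898964. It held 273.0 and 363.0 scaled reads at 0 h, 175.8 and 186.7 at 12 h, with 323.1 and 215.0 at 48 h. Both 12 h libraries lay below all others, and the log2 fold change at 12 h vs 0 h was -0.81 ± 0.21 (adjusted p = 0.012), while 17.0% of the 16416 promoter peaks in the table were called lost in this comparison. This call was lost without 3 of the 6 libraries: without 0 h R2, 12 h R1 or 12 h R2 the adjusted p was 0.26, 0.14 and 0.13. Of the 11 remaining peaks of Dnmt1, between 7.5 and 115.2 scaled reads on average, none was called.

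Uhrf1 (chr17:56303321-56323486, plus strand), the protein that recognises hemimethylated DNA and recruits Dnmt1, followed the same course as Dnmt1 in its mean values. Its 5 peaks summed to 955.4 and 1015 at 0 h, 731.3 and 695.4 at 12 h, with 1029 and 843.5 at 48 h. The 12 h libraries were again the lowest, and the libraries of 0 h and 48 h overlapped. The log2 fold change was -0.47 ± 0.12 (adjusted p = 0.015) at 12 h vs 0 h and 0.39 ± 0.12 (adjusted p = 0.021) at 48 h vs 12 h, or -0.17 and 0.07 relative to the all-gene medians. Neither call was made with TMM factors (-0.19, adjusted p = 0.19, and 0.10, adjusted p = 0.44), with DESeq2 (-0.18, adjusted p = 0.46, and 0.08, adjusted p = 0.73) or without any single 12 h library, with adjusted p from 0.10 to 0.16. The loss was also not called without 0 h R1 or 0 h R2 (-0.51 and -0.42). With a single 48 h library the gain came to 0.24 without 48 h R1 and 0.53 without 48 h R2.

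Most reads of Uhrf1 lay in its promoter peak, chr17:56301775-56306263, which also covers the start of Arrdc5. It held 679.4 and 698.4 scaled reads at 0 h, 511.4 and 520.7 at 12 h, with 700.6 and 564.9 at 48 h, and was called in no comparison (-0.42 ± 0.16, adjusted p = 0.079 at 12 h vs 0 h). That value passed with the 4 compared libraries alone (adjusted p = 0.00041) and not with TMM factors (-0.35, adjusted p = 0.17). The peak that was called belongs to the promoter of Kdm4b, a histone lysine demethylase downstream of Uhrf1, at chr17:56325895-56327026. Its scaled counts of 137.5 and 186.8 at 0 h, 111.5 and 83.7 at 12 h, with 187.6 and 129.0 at 48 h gave -0.74 ± 0.25 (adjusted p = 0.043) at 12 h vs 0 h and 0.69 ± 0.25 (adjusted p = 0.049) at 48 h vs 12 h. Both calls near the threshold were lost with DESeq2 (adjusted p = 0.12 and 0.072), with an offset that fits how the counts of each library depend on GC content (-0.33, adjusted p = 0.27, and 0.48, adjusted p = 0.058) and without any single 0 h or 12 h library (adjusted p from 0.078 to 0.42). The gain was also lost without 48 h R1 (0.41, adjusted p = 0.19), and of all promoter peaks 27.4% were called gained at 48 h vs 12 h. When promoter peaks of other genes were left out of the sum, Uhrf1 gave 0.30 (adjusted p = 0.074) at 48 h vs 12 h.

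The de novo methyltransferases went the other way at 12 h. Dnmt3a (ENSMUSG00000020661.15, chr12:3806007-3914443, plus strand) had 15 peaks with summed scaled counts of 1753 and 1709 at 0 h, 2446 and 2153 at 12 h, with 2278 and 2286 at 48 h. Every library with doxycycline lay above both 0 h libraries, and the 12 h and 48 h libraries overlapped. The log2 fold change was 0.41 ± 0.09 (adjusted p = 0.012) at 12 h vs 0 h and 0.40 ± 0.09 (adjusted p = 0.021) at 48 h vs 0 h, or 0.70 and 0.37 relative to the all-gene medians. It was -0.01 ± 0.09 (adjusted p = 0.93) between 12 h and 48 h. Both calls relative to 0 h were lost without any single 0 h or 12 h library, at 0.32 to 0.50 and 0.38 to 0.42. Of 10 alternatives with all replicates, 8 kept the 48 h call. It missed the threshold with the 4 compared libraries alone (0.40, adjusted p = 0.062).

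This gain lay mainly in 1 peak. The gene has a start at its 5′ end, from which the long isoform is made, and an internal start, known to give the shorter isoform Dnmt3a2 that prevails in ES cells. The peak over the internal start, chr12:3883472-3893744, had 932.8 and 957.4 scaled reads at 0 h, 1620.1 and 1474.6 at 12 h, with 1544.4 and 1620.0 at 48 h. All 4 libraries with doxycycline exceeded both 0 h libraries. It was 1.64 times the 0 h level at 12 h (log2 fold change 0.71 ± 0.14, adjusted p = 0.0013) and 1.67 times at 48 h (0.74 ± 0.14, adjusted p = 0.00070), with 0.03 ± 0.14 between them (adjusted p = 0.90). The 48 h call was made without any single library (0.71 to 0.78), and the 12 h call was lost without 0 h R1 (0.69, adjusted p = 0.051), 0 h R2 (0.73, adjusted p = 0.068) or 12 h R1 (0.64, adjusted p = 0.075).

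The peak over the upstream Dnmt3a start, described after its values were seen, chr12:3806480-3808464, with a GC content of 78.5%, held 126.2 and 115.7 scaled reads at 0 h, 150.1 and 94.7 at 12 h, with 114.4 and 55.0 at 48 h. Its 12 h libraries lay on both sides of those of 0 h, and no comparison passed (0.01 ± 0.28, adjusted p = 0.98, and -0.54 ± 0.29, adjusted p = 0.24, relative to 0 h). The difference between the changes of the 2 starts was not tested. The strongest peak away from a start, chr12:3870487-3874843, ranged from 351.7 to 439.6 scaled reads over the 6 libraries, with changes of -0.04 at 12 h and -0.22 at 48 h relative to 0 h (adjusted p = 0.90 and 0.44). With all promoter peaks left out, the remaining sum of Dnmt3a gave -0.08 at 12 h (adjusted p = 0.75) relative to 0 h, and the corresponding value of 48 h was -0.11 (adjusted p = 0.65). An intronic peak, chr12:3825123-3826137, was the only one of the gene called lost, at 61.6 and 62.6 at 0 h against 38.6 and 30.4 at 12 h (-0.85 ± 0.29, adjusted p = 0.044). That call was lost with TMM factors (adjusted p = 0.062), DESeq2 (0.17) or the GC offset (0.051) and without any single 0 h or 12 h library (adjusted p from 0.14 to 0.37).

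Dnmt3b (chr2:153649450-153687730, plus strand), the de novo methyltransferase that rises as ES cells leave the naive state, had 5 peaks, with sums of 545.9 and 451.1 at 0 h, 677.6 and 684.4 at 12 h, with 709.5 and 797.1 at 48 h. The 3 time points did not overlap, and the values lay in their order. The log2 fold change was 0.45 ± 0.13 (adjusted p = 0.021) at 12 h and 0.60 ± 0.12 (adjusted p = 0.012) at 48 h relative to 0 h, with 0.15 ± 0.12 (adjusted p = 0.33) from 12 h to 48 h. Relative to the all-gene medians these were 0.74, 0.57 and -0.17. The call at 12 h was lost without any single 0 h or 12 h library (0.32 to 0.59, adjusted p from 0.063 to 0.19), and that at 48 h without 0 h R2 (0.47, adjusted p = 0.21). With the gene body and 2 kb alone, without the upstream peaks, the sum moved by 0.04 (adjusted p = 0.84) at 12 h vs 0 h, and the change from 12 h to 48 h was 0.48 (adjusted p = 0.018).

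Of the 5 peaks of Dnmt3b, 1 upstream and 1 in an intron were called. The upstream peak, chr2:153640404-153644291, ends 5159 bp before the gene and held 228.8 and 150.7 scaled reads at 0 h, 339.9 and 344.0 at 12 h, with 253.1 and 345.7 at 48 h. All libraries with doxycycline lay above 0 h, and the log2 fold change was 0.85 ± 0.21 (adjusted p = 0.0079) at 12 h and 0.66 ± 0.21 (adjusted p = 0.036) at 48 h relative to 0 h. Without 0 h R2, the lowest library, these were 0.58 (adjusted p = 0.25) and 0.39 (adjusted p = 0.51). The 12 h call was also lost without 12 h R1 or R2 (adjusted p = 0.082 and 0.11), and the 48 h call without 12 h R1 or R2 (0.085 each) and without 48 h R2 (0.41, adjusted p = 0.061).

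The intronic peak of Dnmt3b, chr2:153651484-153652824, centred 2537 bp from the start, had 58.5 and 37.1 scaled reads at 0 h, 80.4 and 82.8 at 12 h, with 105.5 and 118.7 at 48 h. The time points were again in order without overlap, and 48 h was 2.34 times 0 h (1.23 ± 0.27, adjusted p = 0.0026), a call lost without 0 h R2 (0.94, adjusted p = 0.15). At 12 h vs 0 h its log2 fold change was 0.77 ± 0.27 (adjusted p = 0.055), which passed with TMM factors (adjusted p = 0.036), the GC offset (0.014) or the 4 compared libraries alone (0.0042). The promoter peak proper, chr2:153648773-153650188, stood at 135.5 and 153.9, 119.0 and 113.1, and 183.2 and 135.0 scaled reads at 0 h, 12 h and 48 h, and was called in no comparison (adjusted p from 0.16 to 0.76). Both called sites are those whose sequences are printed above, where the upstream window holds 1 E-box and the intronic window 2, of which 1 is CAGCTG.

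Dnmt3l (chr10:78041947-78063622, plus strand), the inactive partner that stimulates Dnmt3a and Dnmt3b, passed the test in no comparison as a gene. Its 8 peaks summed to 568.5 and 524.3 at 0 h, 466.4 and 458.1 at 12 h, with 516.3 and 494.4 at 48 h, which gave -0.24 ± 0.12 (adjusted p = 0.12), -0.11 ± 0.12 (0.61) and 0.13 ± 0.12 (0.37) in the 3 comparisons. At 12 h vs 0 h the Dnmt3l sum passed with the 4 compared libraries alone (adjusted p = 0.023) and was 0.03 with TMM factors (0.87). Its strongest peak, at the promoter used within the annotated gene, chr10:78046839-78050682, varied only from 306.7 to 351.0 scaled reads over all 6 libraries, with log2 fold changes of -0.05, 0.00 and 0.06, each with an SE of 0.18. A weak promoter peak, chr10:78054958-78055382, had 23.6 and 26.5 at 0 h against 5.4 and 12.9 at 12 h (-1.41 ± 0.46, adjusted p = 0.037), which was not called with DESeq2 (adjusted p = 0.17) or the GC offset (0.075) or without any single 0 h or 12 h library (0.064 to 0.31).

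The other called peak near Dnmt3l was a promoter peak of Icosl, a ligand of T cell costimulation, at chr10:78067741-78068011, with 22 reads at 0 h over both libraries and 3 at 12 h. Their ratio was 0.129, with a 95% counting interval from 0.0248 to 0.431, and the adjusted p of 0.038 was lost without 0 h R1, 0 h R2 or 12 h R2 (0.26, 0.099 and 0.34). The larger Icosl promoter peak, chr10:78068841-78070038, had 91.3 and 105.1 scaled reads at 0 h, 62.2 and 53.4 at 12 h, with 112.1 and 61.1 at 48 h and was not called (-0.77 at 12 h vs 0 h, adjusted p = 0.064). Reads are not marked by molecular identifiers, so such intervals cover counting error only.

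**Figure D4:**
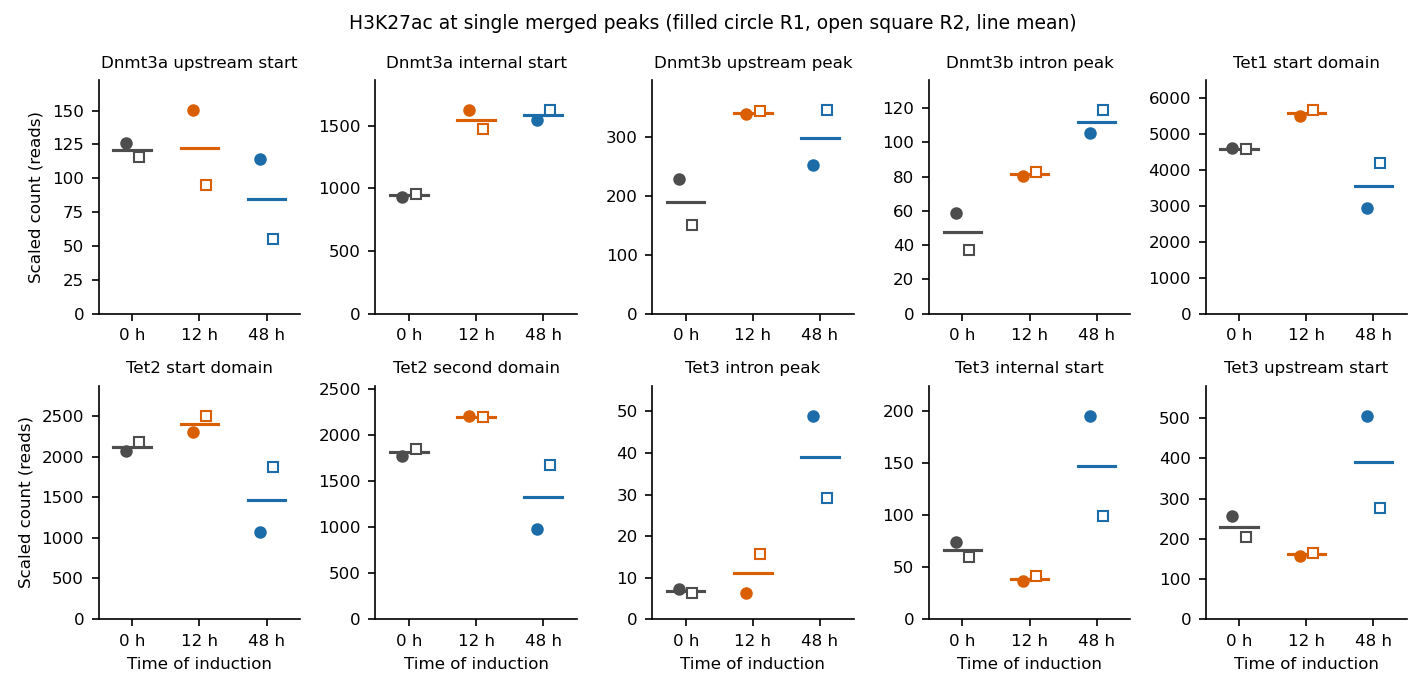
Scaled H3K27ac counts (reads, y axis from 0) at 10 merged peaks of Dnmt3a, Dnmt3b, Tet1, Tet2 and Tet3 at 0 h, 12 h and 48 h, with filled circles for R1, open squares for R2 and a line at the mean. The internal Dnmt3a start lies above both 0 h libraries at 12 h and 48 h, the Tet1 and Tet2 domains are lowest in 48 h R1, and the 3 Tet3 peaks are highest in 48 h R1.

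The Tet genes divided at 48 h. Tet1 (chr10:62804570-62908996, minus strand), the dioxygenase most abundant in ES cells, had 28 peaks with sums of 6225 and 6176 at 0 h, 6996 and 7191 at 12 h, with 4468 and 5753 at 48 h. The 12 h libraries were the highest and those of 48 h the lowest, without overlap. From 12 h to 48 h the sum fell by 0.47 on the log2 scale (SE 0.11, adjusted p = 0.010), or by 0.79 relative to the all-gene median. Relative to 0 h, neither 0.19 ± 0.11 at 12 h (adjusted p = 0.19) nor -0.28 ± 0.11 at 48 h (adjusted p = 0.15) passed. At 12 h the value was 0.49 relative to the all-gene median, 0.48 with DESeq2 (adjusted p = 0.027), 0.47 with TMM factors (0.078) and -0.03 with the GC offset (0.75), so its sign depended on the setting, and it passed with the 4 compared libraries alone (0.19, adjusted p = 0.00036). The fall was -0.30 without 48 h R1 and -0.67 without 48 h R2, and was not called without 12 h R1 or R2 (adjusted p = 0.074 and 0.096). With the GC offset the change at 48 h vs 0 h passed as well (-0.38, adjusted p = 0.00015).

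The fall lay mainly in the wide domain over the Tet1 start, and without promoter peaks the sum moved by -0.10 (adjusted p = 0.69) from 12 h to 48 h. It held 4609.8 and 4582.0 scaled reads at 0 h, 5511.2 and 5663.8 at 12 h, with 2931.1 and 4194.4 at 48 h. The 2 libraries of 48 h differed by more than those of 0 h and 12 h, but both lay below all others. At 48 h the domain was at 0.638 times its 12 h level (-0.65 ± 0.14, adjusted p = 0.0028), with -0.41 and -0.93 without 48 h R1 and R2, and adjusted p of 0.054 and 0.087 without 12 h R1 and R2. Relative to 0 h it moved by 0.28 ± 0.14 at 12 h (adjusted p = 0.16) and, at 48 h, by -0.37 ± 0.14 (adjusted p = 0.080). The latter passed with the GC offset (-0.49, adjusted p = 0.00037).

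Of the other 27 peaks of Tet1, 2 intronic ones were called. The peak next to the domain, chr10:62903879-62905375, went from 112.9 and 113.6 at 0 h over 82.6 and 99.3 at 12 h to 63.3 and 72.2 at 48 h, and its log2 fold change at 48 h vs 0 h was -0.73 ± 0.24 (adjusted p = 0.043). That call was lost with TMM factors (adjusted p = 0.071) or DESeq2 (0.20) and without any single 0 h or 12 h library (0.095 to 0.25). The peak chr10:62856925-62857337 had 23.6 and 23.4 at 0 h, 6.4 and 10.1 at 12 h, with 25.5 and 12.0 at 48 h (-1.47 ± 0.47, adjusted p = 0.035 at 12 h vs 0 h), lost without any single 0 h or 12 h library (0.13 to 0.24). The promoter peak of the neighbouring Ccar1, which the 10 kb rule includes, ranged from 665.8 to 847.1 scaled reads and was not called.

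Tet2 (chr3:133463679-133545139, minus strand), the Tet enzyme also known as a tumour suppressor in blood, had 8 peaks. Its sums were 4049 and 4281 at 0 h, 4705 and 4850 at 12 h, with 2150 and 3734 at 48 h. The order of the time points was that of Tet1, with 48 h R1 at the bottom. The fall from 12 h to 48 h was -0.70 ± 0.19 (adjusted p = 0.015), or -1.01 relative to the all-gene median. It was -0.36 without 48 h R1 and -1.15 without 48 h R2, with adjusted p of 0.080 and 0.098 without 12 h R1 and R2. Neither 0.20 ± 0.19 at 12 h (adjusted p = 0.41) nor -0.50 ± 0.19 at 48 h (adjusted p = 0.12) passed relative to 0 h. With the GC offset the latter was -0.68 (adjusted p = 6.5e-07). The 12 h value was 0.49 relative to the all-gene median, 0.48 with DESeq2 (adjusted p = 0.47), 0.47 with TMM factors (0.19) and -0.19 with the GC offset (0.12), so that here too the sign depended on the setting, and it passed with the 4 compared libraries alone (0.20, adjusted p = 0.00073).

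With DESeq2 the fall of the Tet2 sum was -0.98 and missed the threshold (adjusted p = 0.056). Both Tet2 domains shared in the fall. The domain over the start, chr3:133529501-133545572, had 2067.8 and 2179.0 scaled reads at 0 h, 2299.9 and 2500.3 at 12 h, with 1068.1 and 1873.7 at 48 h. The 48 h libraries lay below all others, and the change was -0.70 ± 0.18 (adjusted p = 0.0079) relative to 12 h and -0.53 ± 0.18 (adjusted p = 0.045) relative to 0 h. The change relative to 12 h was -0.36 and -1.17 without 48 h R1 and R2, with adjusted p of 0.062 and 0.13 without 12 h R1 and R2. That relative to 0 h was lost without any library other than 48 h R2 (adjusted p from 0.093 to 0.34, and -0.18 without 48 h R1), with TMM factors (0.076) or with DESeq2 (0.22).

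The other domain, chr3:133512779-133528520, lies over exons and introns downstream of the start and had 1775.4 and 1847.9 scaled reads at 0 h, 2204.5 and 2193.0 at 12 h, with 977.0 and 1673.3 at 48 h. Its change from 12 h to 48 h was -0.73 ± 0.17 (adjusted p = 0.0058), with -0.39 and -1.17 without 48 h R1 and R2 and adjusted p of 0.076 and 0.090 without 12 h R1 and R2. The 6 remaining peaks of Tet2, all intronic, averaged at most 56.5 scaled reads and were not called.

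As a sum, the ES cell markers were highest at 12 h and lowest at 48 h, as were Tet1 and Tet2. Their summed promoter counts were 17362 and 17571 at 0 h, 19283 and 19122 at 12 h, with 11963 and 15116 at 48 h, with 48 h R1 the lowest library, as for Tet1 and Tet2. Single markers differed. From 12 h to 48 h Esrrb, Pou5f1, Tdgf1 and Zfp42 lost H3K27ac (-0.68, -0.58, -0.52 and -0.48, adjusted p from 0.0021 to 0.034). Sox2 (-0.28, adjusted p = 0.13) and Nanog (-0.23, adjusted p = 0.24) did not pass. At 48 h vs 0 h Nanog (-0.52, adjusted p = 0.014) and Esrrb (-0.46, adjusted p = 0.028) lost H3K27ac. There Zfp42, Tdgf1, Sox2 and Pou5f1 did not pass (-0.42, -0.38, -0.24 and -0.23). At 12 h vs 0 h none passed, with values from -0.28 (Nanog) to 0.35 (Pou5f1). In Sox2 alone 48 h R2 (1990.6) lay below 48 h R1 (2130.6). The part of these markers in the fall of Tet1 and Tet2 was not tested.

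Tet3 (chr6:83362373-83459084, minus strand), the Tet enzyme expressed in the nervous system, had the largest change of the 8 genes. Its 4 peaks summed to 345.8 and 276.0 at 0 h, 214.4 and 232.7 at 12 h, with 765.0 and 407.6 at 48 h. The 48 h libraries lay above all others and differed from each other by more than R2 differed from any 0 h or 12 h library. The log2 fold change was 0.91 ± 0.25 (adjusted p = 0.037) at 48 h vs 0 h and 1.38 ± 0.25 (adjusted p = 0.0052) at 48 h vs 12 h, or 0.88 and 1.06 relative to the all-gene medians. At 12 h vs 0 h it was -0.47 ± 0.26 (adjusted p = 0.16), which passed with the 4 compared libraries alone (adjusted p = 0.00036). With TMM factors it was -0.20 (adjusted p = 0.56). The gain from 0 h was 0.39 without 48 h R1 and 1.30 without 48 h R2, each with a single 48 h library. It was lost without any single 0 h or 12 h library (adjusted p from 0.070 to 0.39). The gain from 12 h was 0.86 and 1.77 without 48 h R1 and R2, and had an adjusted p of 0.061 and 0.071 without 12 h R1 and R2.

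The gain from 0 h also missed the threshold with the 4 compared libraries alone (adjusted p = 0.072), and that from 12 h without promoter peaks (1.05, adjusted p = 0.051). Of the 4 Tet3 peaks, 3 gained H3K27ac. The intronic peak chr6:83427925-83428647, 13389 bp from the nearest annotated Tet3 start, held 7.2 and 6.4 scaled reads at 0 h, 6.4 and 15.6 at 12 h, with 48.9 and 29.2 at 48 h. At 0 h it lay below the median peak of the table, and at 48 h both libraries exceeded all others. The level at 48 h was 5.59 times that at 0 h (2.48 ± 0.47, adjusted p = 0.00068) and 3.38 times that at 12 h (1.76 ± 0.42, adjusted p = 0.0062). The gain from 0 h was called without any single library (2.09 to 2.83), and the gain from 12 h was lost without 12 h R1 (1.30, adjusted p = 0.13).

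The peak at the internal Tet3 start, chr6:83440742-83442205, had 73.9 and 59.4 scaled reads at 0 h, 36.5 and 41.4 at 12 h, with 195.4 and 98.9 at 48 h. Its 12 h libraries were the lowest, at -0.77 ± 0.32 relative to 0 h (adjusted p = 0.098), and both 48 h libraries the highest. It gained by 1.13 ± 0.28 relative to 0 h (adjusted p = 0.0089) and by 1.90 ± 0.30 relative to 12 h (adjusted p = 0.00023). The former was lost without 0 h R1 (adjusted p = 0.059), 0 h R2 (0.21) or 48 h R1 (0.57, adjusted p = 0.088), with 1.55 without 48 h R2. The latter was called without any single library, from 1.34 to 2.32.

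The peak at the upstream Tet3 start, chr6:83455669-83457584, the most acetylated of the gene, had 256.6 and 203.8 scaled reads at 0 h, 157.6 and 165.6 at 12 h, with 505.2 and 275.2 at 48 h. It gained by 0.75 ± 0.23 relative to 0 h (adjusted p = 0.026), where 4.87% of all promoter peaks were called gained, and by 1.26 ± 0.23 relative to 12 h (adjusted p = 0.00080). At 48 h, R2 lay only a little above the higher 0 h library. The gain from 0 h was 0.26 (adjusted p = 0.29) without 48 h R1 and 1.13 without 48 h R2, and was lost without any single 0 h or 12 h library (adjusted p from 0.054 to 0.35). The gain from 12 h was called without any single library (0.77 to 1.64). The remaining peak, over an exon near the 3′ end, stayed between 4.3 and 15.5 scaled reads.

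Neuronal markers were read at the strongest promoter peak of each, and their part in the gain of Tet3 was not tested. The sums over the 6 of 7 markers with such a peak were 661 and 607 at 0 h, 514 and 543 at 12 h, with 989 and 731 at 48 h. The higher sum at 48 h lay mostly in Tubb3, a neuronal tubulin, and Nhlh1, a neurogenic basic helix-loop-helix factor, the 2 of the 6 that gained relative to 0 h (1.25, adjusted p = 0.00035, and 2.56, adjusted p = 1.4e-05). Elavl4, Map2, Stmn2 and Elavl3 had log2 fold changes of 0.19, 0.01, -0.09 and -0.48 and did not pass. From 12 h to 48 h Tubb3, Nhlh1 and Elavl4 gained (1.29, 1.11 and 0.67, adjusted p = 0.00045, 0.012 and 0.034), as did 27.4% of all promoter peaks. Elavl3, Map2 and Stmn2 did not pass in that comparison (1.3, 0.61 and 0.22). The markers also differed at 12 h vs 0 h. There Nhlh1 gained (1.45, adjusted p = 0.011) and Elavl3 lost H3K27ac (-1.78, adjusted p = 0.016). Map2, Elavl4, Stmn2 and Tubb3 stood at -0.6, -0.48, -0.31 and -0.04 and did not pass. The Tet3 sum stood at -0.47 against 0 h on the log2 scale (adjusted p = 0.16).

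E-box content was described over whole peaks, as the rule for these genes did not use it. All merged peaks together held 5.13 CANNTG, 0.726 CAGATG and 0.570 CAGCTG per kb, and the 86 peaks held 5.51, 0.678 and 0.582 per kb, which is close to the whole table. Tet3 had the highest CAGCTG density of the 8 genes, with 8 in 4424 bp (1.81 per kb), of which 4 lay in the peak of its internal start (2.73 per kb) and 2 in the intronic peak (2.77 per kb). The upstream Tet3 peak held 1 (0.522 per kb). The peak near the 3′ end, called in no comparison, also held 1, which in its 321 bp makes the highest density of the 4 (3.12 per kb). The internal Dnmt3a peak held 11 CAGATG and 10 CAGCTG (1.07 and 0.973 per kb), and the upstream Dnmt3a peak 1 of each. In the Tet1 domain CAGCTG was found 6 times in 23414 bp (0.256 per kb). These are counts of letters in a few peaks and were not tested against other peaks.

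The wider DNA methylation machinery was described with the same fit, from 38 related genes in 5 groups, all of which had peaks. Of these, 0 gained and 12 lost H3K27ac at 12 h vs 0 h, where 7.14% of all genes gained and 30.2% lost it. The counts were 3 and 4 at 48 h vs 0 h (6.46% and 5.36% of all genes), then 15 and 3 between 12 h and 48 h (38.2% and 7.73%). The 12 losses and the 15 gains were thus near the shares of all genes. The medians were -0.20, -0.02 and 0.24 beside -0.29, 0.03 and 0.32 over all genes. With TMM factors these counts were 2 gained and 1 lost, 2 and 3, and 5 and 6, so that most losses at 12 h and most gains from 12 h to 48 h depended on the scaling. Leaving out single libraries kept between 0 and 12 of the 12 losses at 12 h, with 0 without 0 h R2 or 12 h R2, and between 0 and 15 of the 15 gains from 12 h to 48 h, with 0 without 12 h R1 or R2.

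Among regulators of Dnmt and Tet activity, 3 of 9 lost H3K27ac at 12 h vs 0 h (30.2% of all genes did), 2 gained and 3 lost at 48 h vs 0 h (6.46% and 5.36%), and 4 gained and 1 lost at 48 h vs 12 h (38.2% and 7.73%). Cxxc4, whose product binds unmethylated CpG and restrains Tet2, had 86.20 and 83.85 at 0 h, 87.92 and 89.23 at 12 h, with 356.4 and 145.3 at 48 h. Its gain was 1.55 ± 0.35 relative to 0 h (adjusted p = 0.016) and 1.49 ± 0.34 relative to 12 h (adjusted p = 0.0088), with 0.77 and 0.71 without 48 h R1. The gain from 0 h was lost without 0 h R1 or R2 (adjusted p = 0.14 and 0.22) and that from 12 h without 12 h R1 or R2 (0.071 and 0.083).

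Gadd45a, a stress-response gene linked to active demethylation, had 1401 and 1425 at 0 h, 1307 and 1403 at 12 h, with 802.7 and 886.5 at 48 h, and lost H3K27ac at 48 h by 0.74 relative to 0 h (-0.74 ± 0.10, adjusted p = 0.00088). This loss was called without any single library, and the loss from 12 h to 48 h (-0.68 ± 0.10, adjusted p = 0.0026) was missed only without 12 h R2 (adjusted p = 0.068). Its relative Gadd45b gave -0.53 ± 0.11 (adjusted p = 0.011) at 48 h vs 0 h, lost only without 0 h R2 (-0.44, adjusted p = 0.21). Idh2 and Idh1, which make the cosubstrate of the Tet enzymes, gave -0.91 ± 0.13 (adjusted p = 0.0019) and -0.70 ± 0.13 (adjusted p = 0.0073) at 12 h vs 0 h, and Idh1 gained 0.74 ± 0.13 from 12 h to 48 h (adjusted p = 0.0050). Of the calls of this group at 12 h vs 0 h, Idh2 remained with TMM factors (-0.64) and Idh1 did not (-0.43). The Idh2 call was lost without 0 h R2 or 12 h R2 (adjusted p = 0.081 and 0.064). The decrease of Idh1 was not called without any single 0 h or 12 h library (0.054 to 0.12), nor its gain without 12 h R1 or R2 (0.054 and 0.081). Ogt, the glycosyltransferase that binds Tet proteins, gained 0.49 ± 0.14 at 48 h vs 0 h (adjusted p = 0.047), which was not called with TMM factors or without any single 0 h or 12 h library (adjusted p from 0.10 to 0.45).

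Of the 7 methyl-CpG readers, 3 lost H3K27ac at 12 h vs 0 h (all genes 30.2%), 1 gained at 48 h vs 0 h (6.46%), and 3 gained and 1 lost at 48 h vs 12 h (38.2% and 7.73%). Mbd2, a reader linked to the NuRD complex, had 265.8 and 302.5 at 0 h, 259.5 and 247.5 at 12 h, with 450.8 and 409.3 at 48 h. Its gain of 0.60 ± 0.14 relative to 0 h (adjusted p = 0.020) and of 0.76 ± 0.14 relative to 12 h (adjusted p = 0.0054) was also called with TMM factors. The gain from 0 h was lost without any single 0 h or 12 h library (adjusted p from 0.065 to 0.19) and that from 12 h without 12 h R1 or R2 (0.062 and 0.080). Of the zinc finger readers, Zbtb4 gave -0.54 ± 0.13 (adjusted p = 0.013) at 12 h vs 0 h and 0.69 ± 0.13 (adjusted p = 0.0054) at 48 h vs 12 h, while Zbtb38 gave -0.35 ± 0.11 (adjusted p = 0.025) in the latter comparison. The Zbtb4 loss was not called without any single 0 h or 12 h library (adjusted p from 0.11 to 0.12), nor its gain without 12 h R1 or R2 (0.065 and 0.077). That of Zbtb38 was missed without 0 h R1 or R2 (0.059 each) and 12 h R1 or R2 (0.18 and 0.10), and was -0.21 without 48 h R1.

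Of the 10 partners of maintenance and of imprint protection, 4 lost H3K27ac at 12 h vs 0 h (all genes 30.2%), 1 lost at 48 h vs 0 h (5.36%), and 2 gained and 1 lost at 48 h vs 12 h (38.2% and 7.73%). Uhrf2, the paralogue of Uhrf1, gave -0.58 ± 0.21 (adjusted p = 0.048) and 0.96 ± 0.21 (adjusted p = 0.0072) at 12 h vs 0 h and 48 h vs 12 h, and Lig1, the replicative DNA ligase, -0.58 ± 0.17 (adjusted p = 0.025) and 0.56 ± 0.17 (adjusted p = 0.022). Both losses were called in 2 of 6 fits with a library left out, at -0.80 to -0.39 for Uhrf2 and -0.66 to -0.50 for Lig1. The Uhrf2 gain was called in 4 of 6, and the Lig1 gain in 1 of 6, with 0.32 (adjusted p = 0.050) without 48 h R1. Usp7, a deubiquitinase that stabilises Dnmt1, lost 0.43 at 48 h vs 0 h (-0.43 ± 0.10, adjusted p = 0.020), which was not called with TMM factors or without any single 0 h or 12 h library (adjusted p from 0.066 to 0.25). Zfp57, which protects imprints, gave -0.49 ± 0.18 (adjusted p = 0.047) from 12 h to 48 h, with 1224 and 2024 at 48 h. It was also called with TMM factors (-0.75). Among the fits with a library left out it was called only without 48 h R2 (-0.90, against -0.17 without 48 h R1).

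Of the 7 genes of base excision and repair after Tet oxidation, 2 lost H3K27ac at 12 h vs 0 h (all genes 30.2%), 0 were called at 48 h vs 0 h and 5 gained at 48 h vs 12 h (38.2%), and with TMM factors 0 were called in any comparison. Polb, the polymerase of this pathway, gave -0.92 ± 0.27 (adjusted p = 0.024) and 0.87 ± 0.27 (adjusted p = 0.023) at 12 h vs 0 h and 48 h vs 12 h, Ung, a uracil glycosylase, -0.35 ± 0.11 (adjusted p = 0.034) in the former and Smug1, another glycosylase, 0.75 ± 0.27 (adjusted p = 0.040) in the latter. With a library left out, the Polb gain was called in 1 of 6 fits (0.43 without 48 h R1) and its loss, like that of Ung, in 2 of 6. The Ung value was -0.20 (adjusted p = 0.30) without 0 h R2, and the Smug1 gain, called in 2 of 6, was 0.41 (adjusted p = 0.35) without 12 h R2. Tdg, which excises the oxidised bases made by Tet enzymes, was called in no comparison (-0.22 ± 0.10, -0.06 ± 0.10 and 0.15 ± 0.10).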

How the data were processed

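H3K27ac ChIP-seq was analysed in 6 libraries of A2Lox mouse ES cells, R1 and R2 for each time of NeuroD1 induction (0 h, 12 h, 48 h), grouped by the sample titles. An Input library was not analysed here. The authors aligned reads with Bowtie2 in local mode to mm10, processed them with SAMtools 0.1.19, used MACS2 with Input as control, joined overlapping peaks over all samples and deposited raw read counts per merged peak, counted with qCount of QuasR. Because peaks were merged over all libraries, presence of a peak is not a measure of one time point.

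Counts were tested as deposited with edgeR 4.0.16 (quasi-likelihood test) and limma 3.58.1 in R 4.3.3, with all 6 libraries in 1 model, time point as factor, library totals as offset and Benjamini-Hochberg adjustment over all peaks or all genes (threshold 0.05). The residual degrees of freedom were 3, and the common biological coefficient of variation was 14.9% for peaks and 10.5% for genes. Gene sums took all peaks over a gene body with 10 kb on each side (GENCODE M21), so neighbours share peaks. The fits were tested on simulated counts. These had the same spread at every time point and no shift of the all-gene median, unlike the data, so the simulation cannot vouch for the calls. Alternatives were TMM factors, DESeq2 1.42.0, a minimum of 10 counts in 2 libraries, a replicate block, only the 4 compared libraries, an offset from a lowess curve on GC content (span 0.3, with and without the block), other regions, sums without promoter peaks, and leaving out each library. Sums without promoter peaks of other genes and the GC offset on gene sums were added after seeing the data. Python 3.11.15, pandas 2.3.3, scipy 1.17.1, pysam 0.24.0 and matplotlib 3.10.9 were used.

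The peaks described were, for each gene, its strongest promoter peak, its strongest other peak and every called peak, and of the related genes up to 2 called per direction, group and comparison. The genes, lists and tests were chosen with earlier results of these data known. All 8 genes matched the RefSeq promoter table of GRCm38.p6. Sequences were kept clear of annotated UTRs. Some single results among the related genes are not reported here.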

Additional observations from a re-analysis of the deposited data

Results flagged for a closer look

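For 4 genes the level at 48 h departed from that at 12 h by the direct test of 48 h vs 12 h on summed counts (edgeR, adjusted after Benjamini and Hochberg). The log2 difference was 0.39 for Uhrf1 (adjusted p = 0.021), which was not called with TMM factors (0.10, adjusted p = 0.44). It was -0.47 for Tet1 (adjusted p = 0.010) and -0.70 for Tet2 (adjusted p = 0.015), and with TMM factors -0.74 (adjusted p = 0.011) and -0.96 (adjusted p = 0.017). For Tet3 it was 1.38 (adjusted p = 0.0052), and 1.08 (adjusted p = 0.0080) with TMM factors. In Tet1, Tet2 and Tet3 the library 48 h R1 lay farther from 12 h than 48 h R2 did.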

How the results depend on the processing

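Of the 34 called values of single genes and peaks, 16 kept their call in every alternative that used all replicates and gave an adjusted p. Over those alternatives 224 of 267 values kept direction and call, 41 lost the call and 2 turned. The latter were the Dnmt3a sums without promoter peaks, at -0.08 for 12 h vs 0 h and -0.11 for 48 h vs 0 h, where the alternative leaves out the internal start. Leaving out 1 library left a single library at its time point, so the spread came from the other time points alone. Without a 48 h library the 48 h pair, which differed most (chi-square per degree of freedom 5.54), no longer entered it. Calls were lost more often without a 0 h or 12 h library than without a 48 h library. Such losses thus do not measure how far an effect depends on single libraries. A promoter window of 1 kb left the strongest promoter peak of all 8 genes as described. Among 59 values not called, 27 of 446 alternatives that used all replicates passed the test. Over called and uncalled values together, 7 had no adjusted p from DESeq2. Of the 16 calls kept, those of the smaller Icosl peak and of the Tet1 peak chr10:62856925-62857337 at 12 h vs 0 h lacked it. The call of the Tet3 intronic peak at 48 h vs 12 h lacked it too. The smaller Icosl peak was also removed by the count minimum.

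Peaks gained at 12 h vs 0 h, 48 h vs 0 h and 48 h vs 12 h numbered 2, 6 and 4. They were 6, 4 and 3 with the 4 compared libraries, 2, 6 and 2 with DESeq2, 3, 8 and 4 with TMM factors or the GC offset, 3, 8 and 5 with the GC offset and replicate block, and 1, 5 and 3 for the gene body alone or with 2 kb. Leaving out 1 library gave 0 to 6, 2 to 7 and 2 to 14. Peaks lost numbered 6, 2 and 3. They were 13, 0 and 3 with the 4 compared libraries, 1, 0 and 3 with DESeq2, 4, 0 and 3 with TMM factors, 7, 9 and 4 with the GC offset, 9, 9 and 4 with the GC offset and replicate block, 5, 1 and 3 with the count minimum, and 3, 2 and 3 for the gene body alone or with 2 kb. Leaving out 1 library gave 0 to 13, 0 to 10 and 0 to 5. Over all peaks the share of calls that were gains went from 62.2% to 74.2% with TMM factors at 12 h vs 0 h (76.7% with DESeq2), and from 61.1% to 70.5% (77.7%) at 48 h vs 0 h.

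Genes gained in the 3 comparisons numbered 2, 3 and 2. They were 4, 1 and 2 with the 4 compared libraries, 3, 3 and 1 with DESeq2, 2, 3 and 1 with TMM factors or without promoter peaks of other genes, 1, 3 and 2 for the gene body alone, 1, 3 and 3 for the body with 2 kb, and 1, 2 and 0 without promoter peaks. Leaving out 1 library gave 0 to 4, 0 to 3 and 0 to 3. Genes lost numbered 2, 0 and 2. They were 4, 0 and 2 with the 4 compared libraries, 0, 0 and 1 with DESeq2, 0, 0 and 2 with TMM factors, 2, 2 and 2 with the GC offset, and 0, 0 and 1 without promoter peaks. Leaving out 1 library gave 0 to 4, 0 to 2 and 0 to 2. The cause of these differences was not tested.

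The R1 minus R2 differences across peaks correlated at -0.04, -0.05 and 0.08 between time points. Counting error in peaks with few reads lowers such correlations, so they cannot decide whether libraries of the same number were paired. With a replicate block, 2, 6 and 4 peaks were gained and 7, 3 and 3 lost, and 2, 3 and 2 genes were gained and 2, 1 and 2 lost, where the added gene was Tet2 at 48 h vs 0 h (-0.54, adjusted p = 0.040).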
